A study of Mus musculus with 6 samples.

Results

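Calcium channels, calcium pumps and exchangers and the transient receptor potential (TRP) channels were followed in primary mouse hepatic stellate cells given a pulse of forskolin. The genes were chosen by symbol alone, with no use of their values. They are the voltage-gated channel subunit genes (Cacna, Cacnb, Cacng), the TRP genes (Trpa, Trpc, Trpm, Trpv), the inositol trisphosphate and ryanodine receptor genes (Itpr, Ryr), the pump genes Atp2a, Atp2b and Atp2c, the exchanger genes Slc8a and Slc8b, and the STIM and ORAI genes. This gave 74 of the 24940 genes in the deposited table. The symbols also take in Trpc4ap and Trpc5os, which encode no channel. Both are counted in the totals below, Trpc4ap among the tested genes that rose and Trpc5os among those not tested. The cells were wild type (label wt) and came from female C57BL/6JBomTac mice, whose age is not given in the sources used here. At 2 days after isolation one group (Fsk) received 5 µM forskolin, a compound from a plant that switches on adenylyl cyclase, so that cyclic AMP rises. The other group (Ctrl) received an equal volume of dimethyl sulfoxide, the vehicle, at a dilution of 1:1000. Both groups had fresh medium after 3 h, and their RNA was collected 21 h later, at 24 h. Polyadenylated RNA was sequenced from 3 libraries per group, lettered A to C. Whether the letters are separate animals or cultures is not in the labels, so the p-values rest on the spread among the libraries alone, which may be technical.

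Calcium enters the cytosol from the medium or from the endoplasmic reticulum. Hormones coupled to phospholipase C open inositol trisphosphate (IP3) receptors of the reticulum, STIM proteins sense its emptying, and they open ORAI channels of the plasma membrane, which is called store-operated entry. Pumps of the SERCA, plasma membrane and secretory pathway types and sodium-calcium exchangers clear the ion again. In stellate cells, rises of cytosolic calcium accompany the contraction set off by vasoconstrictors such as endothelin. Protein kinase A, the main effector of cyclic AMP, acts on CREB, a transcription factor that binds the cyclic AMP response element (CRE).

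Counts per library totalled 10890193 to 12954310 with forskolin and 13001358 to 15090262.5 with vehicle. All 15 stellate cell markers were expressed enough to be tested, summing to 6317 to 6698 CPM with vehicle and 6008 to 6226 CPM with forskolin (CPM, the count relative to the TMM-scaled library size). Of these 8 fell and 5 rose at an edgeR adjusted p under 0.05. Of all genes tested 25.1% fell and 24.8% rose, so marker counts near these shares are no result about a list. Among those that fell were Des from 323 ± 7.37 to 182 ± 20.8 CPM, Col1a2 from 477 ± 34.2 to 297 ± 16.5 CPM and Ngfr from 15.6 ± 0.896 to 6.24 ± 1.12 CPM. Hgf rose from 198 ± 7.01 to 401 ± 11.7 CPM (SD, n = 3). Genes listed as markers of other cells moved as well. Of 12 vascular smooth muscle markers, which share Des and Acta2 with the stellate list, 11 were tested and 11 fell, with sums of 2178 to 2248 CPM with vehicle and 1709 to 1961 CPM with forskolin, while Myocd, the defining regulator, was at 0.0131 and 0.0304 CPM. Of 11 sinusoidal endothelial markers 8 were tested, 5 fell and 1 rose, with sums of 241 to 251 and 105 to 111 CPM, while Pecam1 was at 0.379 and 0.412 CPM. Flt4 made up most of both sums, at 195 ± 4.24 and 79.7 ± 1.46 CPM. The marker that rose was Stab2, from 0.955 ± 0.312 to 2.53 ± 0.903 CPM. Of 10 neuronal markers 5 were tested and 2 rose, Tubb3 and Syn1, with sums of 67.0 to 74.3 and 183 to 212 CPM, and Snap25 was at 0 with vehicle. Most of the rise in the sum was Tubb3, from 21.3 ± 1.27 to 136 ± 15.2 CPM, and 3 tested markers did not pass. Muscle markers (12 listed, 2 tested, 1 higher) summed to 3.94 to 4.96 and 4.33 to 8.01 CPM, with Myh2 at 0. For 11 macrophage markers (3 tested, 2 higher and 1 lower) sums with vehicle and forskolin were 34.8 to 36.8 and 38.0 to 39.1 CPM, with Marco at 0. For 10 hepatocyte markers (3 tested, 2 higher) the sums were 304 to 317 and 361 to 443 CPM, with Serpina1a and Fgb at 0. Sums were 138 to 153 and 392 to 428 CPM for 7 cholangiocyte markers (4 tested, 2 higher and 2 lower). Of these Spp1 rose from 72.5 ± 3.63 to 372 ± 22.6 CPM and Krt19 fell from 71.3 ± 4.83 to 35.1 ± 4.38 CPM. For 8 lymphocyte markers, none tested, sums were 0.201 to 0.472 and 0.302 to 0.592 CPM. Whether these lists stand for other cells in the cultures was not tested, nor was the part of such cells in the results below. In bulk RNA fewer cells of a type and less RNA per cell cannot be told apart.

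Of the 74 genes, 34 had enough counts to be tested with edgeR's quasi-likelihood test. With forskolin 13 of them fell and 6 rose, at an adjusted p under 0.05 over all 13357 genes tested. Together these were 19 of 34, or 55.9%, where 49.9% of all tested genes passed, so the total is near the background and is not a result about these genes. The share that fell was 38.2% (25.1% of all tested genes) and the share that rose 17.6% (24.8% of all tested genes). Scaled by library size without TMM factors, 7 rose and 9 fell. In that setting 51.4% of all tested genes passed, 58.1% of these higher. The median log2 fold change over all tested genes was then 0.0514. The median log2 fold change of the 34 was -0.17, beside 0.0082 over all tested genes, and the median absolute log2 fold change 0.24 beside 0.22. The vehicle and forskolin libraries did not overlap for 20 of the 34 (57.2% of all tested genes did not). Among the genes that passed, Trpc6 and Trpc2 changed at least 2-fold. The 8 genes Stim1, Orai2, Itpr1, Atp2c1, Cacna1a, Cacna1c, Cacnb2 and Trpc6 passed under all 13 alternative settings tried.

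**Figure D1:**
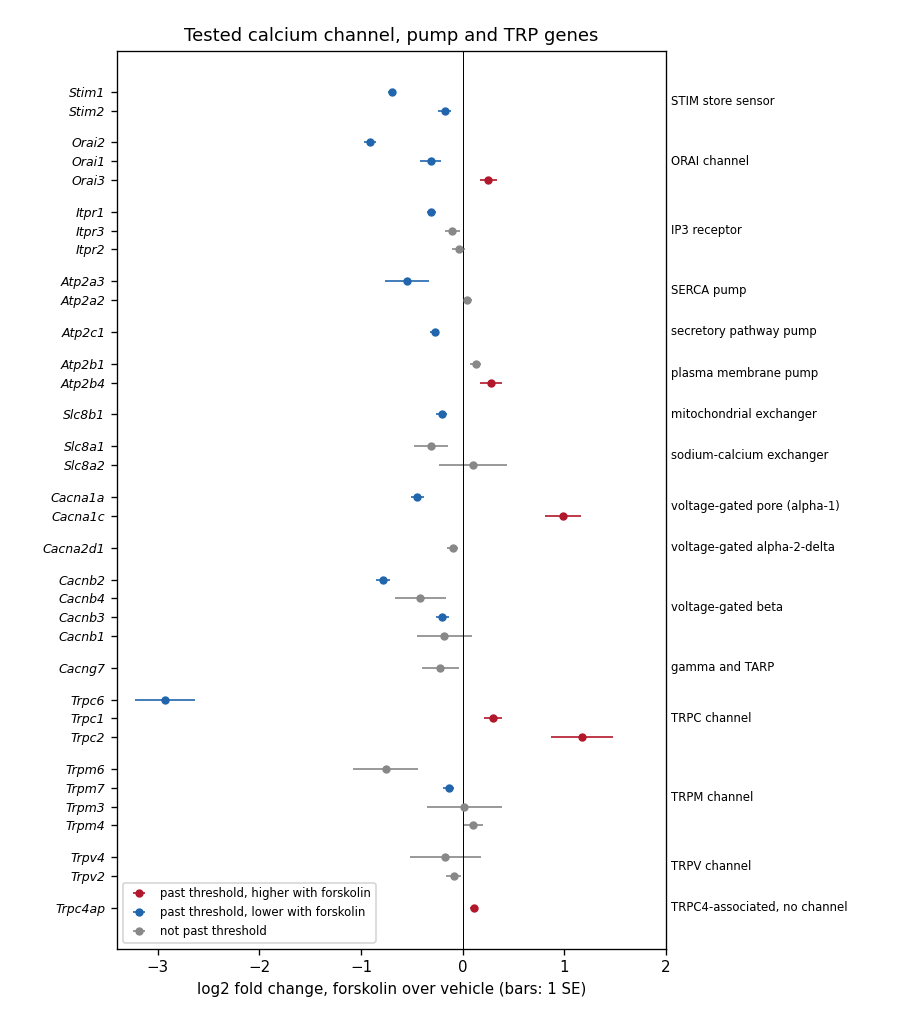
Log2 fold change, forskolin over vehicle, of the 34 tested genes (x axis, edgeR estimates with bars of 1 SE), grouped by role and coloured by the adjusted p threshold of 0.05. Trpc6 lies farthest to the left at -2.93 and Trpc2 farthest to the right at 1.18.

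The starts of 5 of these 8 genes are shown because they had the largest changes, Trpc6, Orai2, Cacnb2 and Stim1, which fell, and Cacna1c, which rose. Each is the 250 bases before the RefSeq start (GRCm38.p6; for Stim1, 5 bases from the start in the deposited table), written 5′ to 3′ on the gene's own strand, and capitals mark the CRE core TGACG.
Stim1, chr7:102267569-102267818, plus strand: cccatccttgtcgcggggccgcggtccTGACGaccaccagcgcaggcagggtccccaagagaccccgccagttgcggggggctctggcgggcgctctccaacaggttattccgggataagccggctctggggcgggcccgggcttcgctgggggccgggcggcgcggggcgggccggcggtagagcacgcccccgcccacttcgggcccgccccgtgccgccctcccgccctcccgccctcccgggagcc
Orai2, chr5:136170657-136170906, minus strand: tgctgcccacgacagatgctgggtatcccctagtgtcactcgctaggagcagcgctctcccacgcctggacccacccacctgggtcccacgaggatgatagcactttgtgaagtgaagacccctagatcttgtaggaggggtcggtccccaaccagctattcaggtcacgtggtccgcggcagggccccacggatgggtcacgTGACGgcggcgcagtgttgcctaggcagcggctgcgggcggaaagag
Trpc6, chr9:8543892-8544141, plus strand: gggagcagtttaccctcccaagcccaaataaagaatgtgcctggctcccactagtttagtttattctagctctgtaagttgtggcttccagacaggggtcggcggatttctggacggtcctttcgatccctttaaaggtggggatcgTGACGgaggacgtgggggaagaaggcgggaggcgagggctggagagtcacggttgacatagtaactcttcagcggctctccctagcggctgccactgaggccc
Cacnb2, chr2:14604056-14604305, plus strand: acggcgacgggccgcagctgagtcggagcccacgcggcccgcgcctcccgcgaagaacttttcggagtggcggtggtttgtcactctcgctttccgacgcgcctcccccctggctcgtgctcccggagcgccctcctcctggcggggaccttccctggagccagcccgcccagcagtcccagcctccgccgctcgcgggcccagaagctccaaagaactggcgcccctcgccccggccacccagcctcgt
Cacna1c, chr6:119108496-119108745, minus strand: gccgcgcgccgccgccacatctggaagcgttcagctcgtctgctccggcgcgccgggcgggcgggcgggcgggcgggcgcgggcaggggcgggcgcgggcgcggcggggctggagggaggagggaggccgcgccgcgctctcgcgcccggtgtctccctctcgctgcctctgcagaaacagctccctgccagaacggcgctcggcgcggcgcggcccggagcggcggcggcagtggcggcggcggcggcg
Stim1, Orai2 and Trpc6 each held 1 CRE core, its first base 223, 47 and 103 bases before the start, and none was found in the letters of Cacnb2 or Cacna1c. The window of Cacna1c was 82.8% G and C, that of Stim1 78.4%, that of Orai2 63.6%, that of Cacnb2 73.2% and that of Trpc6 56.4%.

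Promoter windows, each the 250 bases before a RefSeq start as printed above, were found by symbol for 59 of the 74 genes, 51 of them at the table's own start, and for 29 of the 34 tested. The motifs searched on both strands were the CRE TGACGTCA, its core TGACG, which every full CRE contains, and the TEAD motif GGAATG. No window of these genes held TGACGTCA, which 1.55% of all 32851 such windows held. The core was in 8 of the 29 tested genes with a window (27.6%, beside 17.8% of all windows), namely Stim1, Orai1, Orai2 and Trpc6, which fell, Trpc1, Trpc2 and Trpc4ap, which rose, and Cacna2d1, which did not pass. GGAATG was in 3 of the 29, Atp2b4, Cacng7 and Trpc2, and in 12.6% of all windows.

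Among the store sensors, Stim1, which encodes the main reticulum calcium sensor of store-operated entry, fell by 38.1% (chromosome 7, 102267824 to 102436855). It was at 434, 423 and 442 CPM in vehicle and 272, 257 and 276 CPM in forskolin libraries. The groups lay far apart (log2 fold change -0.69, SE 0.0418, edgeR adjusted p = 1.54e-10). Per kb of exon Stim1 had the highest mean level of the 34 tested genes with vehicle, 121 ± 2.67 CPM per kb (SD, n = 3), beside 116 ± 2.20 for the SERCA gene Atp2a2. With forskolin it stood at 74.7 ± 2.73 and Atp2a2 at 119.8 ± 5.79 CPM per kb. Stim2, whose product responds to smaller drops of store calcium, was at 69.9, 76.3 and 72.3 CPM in vehicle and 58.6, 66.1 and 68.5 CPM in forskolin libraries, the highest forskolin library lying just under the lowest vehicle library. Stim2 fell (log2 fold change -0.18, edgeR adjusted p = 0.0253), a call lost without forskolin A (0.117), vehicle B (0.135) or vehicle C (0.0661; edgeR adjusted p). Stim1 made up 89.0 ± 0.604% of the summed STIM level per kb with vehicle and 85.0 ± 1.16% with forskolin, without overlap.

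The ORAI genes, which encode the pore subunits of store-operated channels, did not move alike. Orai2 (chromosome 5, 136147461 to 136170656) was at 70.8, 74.9 and 77.2 CPM in vehicle and 40.1, 39.8 and 38.5 CPM in forskolin libraries. It fell by 46.9% (log2 fold change -0.91, SE 0.0596, edgeR adjusted p = 4.63e-10), and the forskolin libraries lay close together. Orai1, the pore of the classical calcium release-activated current, was at 35.1, 33.4 and 32.6 CPM in vehicle and 28.3, 21.6 and 31.8 CPM in forskolin libraries, where forskolin B was the lowest. Orai1 fell (log2 fold change -0.31, edgeR adjusted p = 0.0186), a call lost without forskolin B (0.139), vehicle A (0.0770) or vehicle B (0.0581; edgeR adjusted p), and without forskolin B its log2 fold change was -0.17. Orai3, the mammal-specific member, was at 24.0, 24.6 and 24.0 CPM in vehicle and 28.8, 30.4 and 27.2 CPM in forskolin libraries, every forskolin library being the higher. Orai3 rose (log2 fold change 0.25, edgeR adjusted p = 0.0138), a call lost without forskolin B (0.0716, edgeR adjusted p). The summed ORAI level was 49.5 ± 0.241 CPM per kb with vehicle and 39.3 ± 1.86 with forskolin, and its makeup shifted. Orai2 held 39.0 ± 1.58% of the sum with vehicle and 26.2 ± 1.63% with forskolin, and Orai3 24.5 ± 0.297% and 36.9 ± 3.77% (SD, n = 3), neither overlapping between groups. Orai1 held 36.5 ± 1.56% and 37.0 ± 5.39%.

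**Figure D2:**
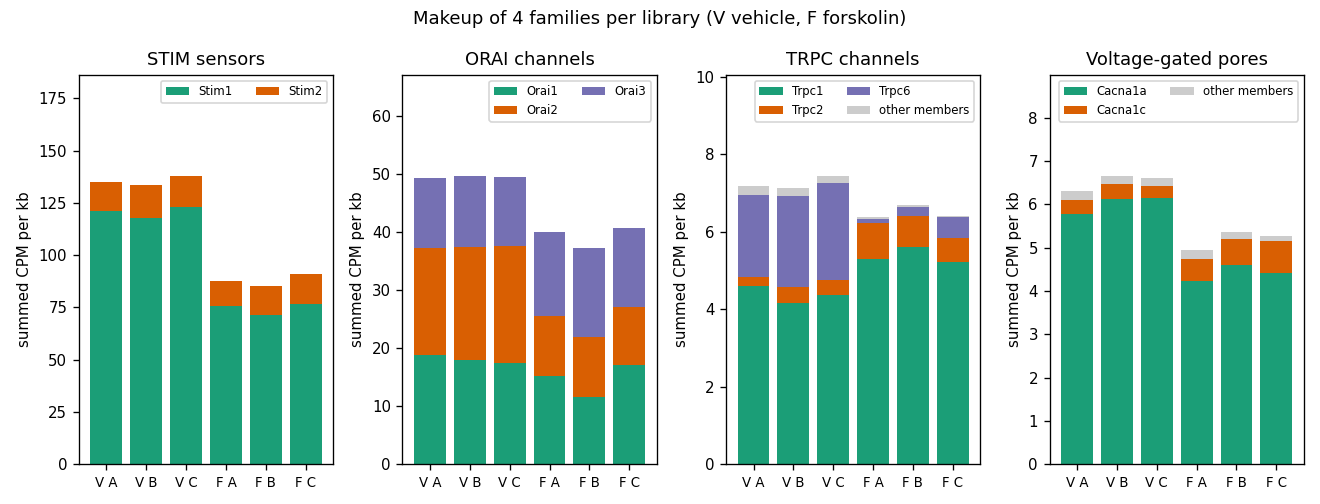
Summed level in CPM per kb of exon (y axis) of the STIM, ORAI, TRPC and voltage-gated pore genes in each of the 6 libraries (x axis), stacked by gene. On average the Orai2 layer goes from 39.0% to 26.2% of the ORAI bar and the Trpc6 layer from 32.1% to 4.64% of the TRPC bar.

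Of the IP3 receptor genes, whose products release calcium from the reticulum, Itpr1 fell and Itpr2 and Itpr3 did not pass. Itpr1 (chromosome 6, 108213096 to 108551116) was at 354, 375 and 372 CPM in vehicle and 296, 306 and 286 CPM in forskolin libraries, without overlap (log2 fold change -0.31, SE 0.0422, edgeR adjusted p = 7.80e-06). Itpr2 was at 74.4 ± 5.79 CPM in vehicle and 72.5 ± 3.54 CPM in forskolin libraries (SD, n = 3; edgeR adjusted p = 0.633). Itpr3 was at 42.4 ± 2.20 CPM in vehicle and 39.6 ± 2.94 CPM in forskolin libraries (edgeR adjusted p = 0.251), and the libraries of both overlapped. Itpr1 held 77.2 ± 0.472% of the summed level per kb with vehicle and 74.02 ± 1.22% with forskolin. The ryanodine receptor genes, which encode release channels best known from muscle and nerve, were all too low to be tested. Ryr2 (chromosome 13, 11553103 to 12106945), the cardiac form, had counts of 6.5, 6 and 5.5 in the vehicle libraries (A to C) and 7.5, 27.5 and 25.5 in the forskolin libraries, so that forskolin B and C stood apart from the other libraries. Its pooled ratio of forskolin over vehicle was 3.77, with an exact 95% binomial interval of 2.20 to 6.79, which, like the other such intervals here, covers counting error only. Ryr1 had 64.5 counts in all and Ryr3 27.

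The main SERCA and plasma membrane pump genes did not pass the threshold. Atp2a2 (chromosome 5, 122453513 to 122502225), which encodes the widespread SERCA pump that refills the reticulum, was at 661, 649.6 and 675 CPM in vehicle and 721, 659.6 and 669 CPM in forskolin libraries, with overlap (log2 fold change 0.05, SE 0.0434, edgeR adjusted p = 0.403). It made up 99.2 ± 0.142% of the summed SERCA level per kb with vehicle and 99.4 ± 0.124% with forskolin. Atp2a3, the SERCA form of blood and endothelial cells, was at 3.65, 4.69 and 3.66 CPM in vehicle and 2.37, 3.21 and 2.63 CPM in forskolin libraries, where no library overlapped. Atp2a3 fell (log2 fold change -0.55, SE 0.216, edgeR adjusted p = 0.0421), a call that held without forskolin B and was lost when any other single library was left out (edgeR adjusted p from 0.0551 to 0.191). Summed endothelial markers were at 241 to 251 CPM with vehicle and 105 to 111 CPM with forskolin, and their part in this result was not tested. Flt4 made up most of both sums, at 195 and 79.7 CPM. Of the 8 endothelial markers tested 5 fell and 1 rose. Atp2c1 (chromosome 9, 105411362 to 105495133), the Golgi pump for calcium and manganese, was at 184, 178 and 179.8 CPM in vehicle and 151, 154 and 142 CPM in forskolin libraries. All 3 forskolin libraries lay below the vehicle libraries (log2 fold change -0.28, SE 0.0440, edgeR adjusted p = 4.15e-05). Its exons share 18.9% of their bases with Aste1 on the opposite strand, and 68.8% of its 50-base stretches occur in no other gene, so without strand reads of the pair cannot be fully told apart. Aste1 was at 16.9 ± 0.865 CPM in vehicle and 14.5 ± 0.601 CPM in forskolin libraries (edgeR adjusted p = 0.0696).

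Atp2b1, the widespread plasma membrane pump gene, was at 175, 176 and 181 CPM in vehicle and 209.9, 198 and 173 CPM in forskolin libraries, where forskolin C lay below every vehicle library (log2 fold change 0.13, edgeR adjusted p = 0.0653). Without forskolin C it passed, at a log2 fold change of 0.20 (edgeR adjusted p = 4.73e-04). It also passed with library size alone and with no filter on low counts. Atp2b4, another plasma membrane pump gene, rose from 14.5 ± 0.973 to 17.6 ± 1.18 CPM (SD, n = 3; log2 fold change 0.28, edgeR adjusted p = 0.0341), a call lost without forskolin B (0.140), vehicle A (0.123) or vehicle C (0.0863; edgeR adjusted p). Slc8b1, which encodes the exchanger that lets calcium out of mitochondria, was at 79.2, 76.5 and 73.9 CPM in vehicle and 65.7, 69.6 and 63.7 CPM in forskolin libraries. It fell without overlap (log2 fold change -0.21, edgeR adjusted p = 0.00465). Of the plasma membrane sodium-calcium exchangers, Slc8a2 was at 2.69, 1.57 and 1.77 CPM in vehicle and 2.55, 2.83 and 0.945 CPM in forskolin libraries, with overlap (edgeR adjusted p = 0.820). It had the higher mean per kb of the pair tested, with vehicle 0.429 ± 0.127 CPM per kb beside 0.365 ± 0.0332 for Slc8a1 (SD, n = 3). In vehicle B, vehicle C and forskolin C the order was the reverse. Slc8a1 was at 6.09, 6.97 and 7.28 CPM in vehicle and 4.37, 5.55 and 6.29 CPM in forskolin libraries (edgeR adjusted p = 0.133), so neither passed. Slc8a3 was too low to be tested, with counts of 8, 11.5 and 8 in the vehicle libraries (A to C) and 1, 2.5 and 1 in the forskolin libraries, a ratio of vehicle over forskolin of 6.18 (exact 95% binomial interval 2.16 to 24.3).

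Voltage-gated calcium channels consist of a pore with auxiliary subunits, and the 2 pore genes tested moved in opposite directions. Cacna1c (chromosome 6, 118587240 to 119108495), the pore of the L-type channel of heart and smooth muscle, was at 4.50, 4.89 and 3.66 CPM in vehicle and 7.11, 8.42 and 10.4 CPM in forskolin libraries. It was 1.99-fold higher with forskolin, with no overlap between groups (log2 fold change 0.99, SE 0.178, edgeR adjusted p = 1.50e-04). Cacna1a (chromosome 8, 84415364 to 84640249), the pore of the P/Q-type channel known from nerve endings, was at 45.5, 48.3 and 48.5 CPM in vehicle and 33.4, 36.2 and 34.8 CPM in forskolin libraries. It fell, again without overlap (log2 fold change -0.44, SE 0.0670, edgeR adjusted p = 2.31e-05). Cacna1a was the higher of the pair per kb, at 6.02 ± 0.217 CPM per kb with vehicle and 4.41 ± 0.183 with forskolin, against 0.316 ± 0.0455 and 0.627 ± 0.120 for Cacna1c (SD, n = 3). The share of Cacna1c in the summed pore level was 4.84 ± 0.715% with vehicle and 12.05 ± 2.03% with forskolin. The other 8 pore genes had at most 31.5 counts over the 6 libraries. Summed smooth muscle markers were at 2178 to 2248 CPM with vehicle and 1709 to 1961 CPM with forskolin, and neuronal markers at 67.0 to 74.3 and 183 to 212 CPM, and their part in the pore results was not tested. Most of the rise in the neuronal sum was Tubb3, from 21.3 to 136 CPM. Of 5 neuronal markers tested 2 rose and 3 did not pass.

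Beta subunits bring the pore to the membrane. Cacnb2 (chromosome 2, 14604306 to 14987908) was at 49.8, 49.97 and 49.9 CPM in vehicle and 28.8, 27.3 and 30.9 CPM in forskolin libraries, the vehicle libraries being almost equal. It fell (log2 fold change -0.78, SE 0.0692, edgeR adjusted p = 2.97e-08). Cacnb3, the beta gene with the highest level per kb, was at 89.6, 85.3 and 85.0 CPM in vehicle and 68.2, 74.3 and 83.4 CPM in forskolin libraries, forskolin C lying close to the vehicle libraries. It fell too (log2 fold change -0.20, edgeR adjusted p = 0.0130), a call lost without forskolin A (0.0567) or vehicle A (0.0683; edgeR adjusted p). Cacnb3 held 71.4 ± 0.777% of the summed beta level per kb with vehicle and 78.4 ± 1.1% with forskolin, and Cacnb2 26.7 ± 0.554% and 19.7 ± 1.28% (SD, n = 3). Cacnb1 was at 1.97 ± 0.238 CPM in vehicle and 1.74 ± 0.291 CPM in forskolin libraries (edgeR adjusted p = 0.605), and Cacnb4 at 2.70 ± 0.370 CPM in vehicle and 1.98 ± 0.357 CPM in forskolin libraries (edgeR adjusted p = 0.178). Cacna2d1, whose product lies outside the membrane and binds gabapentin, was at 125, 137 and 139.5 CPM in vehicle and 133, 123 and 118 CPM in forskolin libraries, with overlap (log2 fold change -0.10, edgeR adjusted p = 0.141). Without forskolin A it passed (log2 fold change -0.14, edgeR adjusted p = 0.0279). Cacng7, of a family that also regulates glutamate receptors in neurons, was at 5.13, 7.20 and 6.10 CPM in vehicle and 4.60, 5.18 and 6.21 CPM in forskolin libraries and did not pass (edgeR adjusted p = 0.332).

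**Figure D3:**
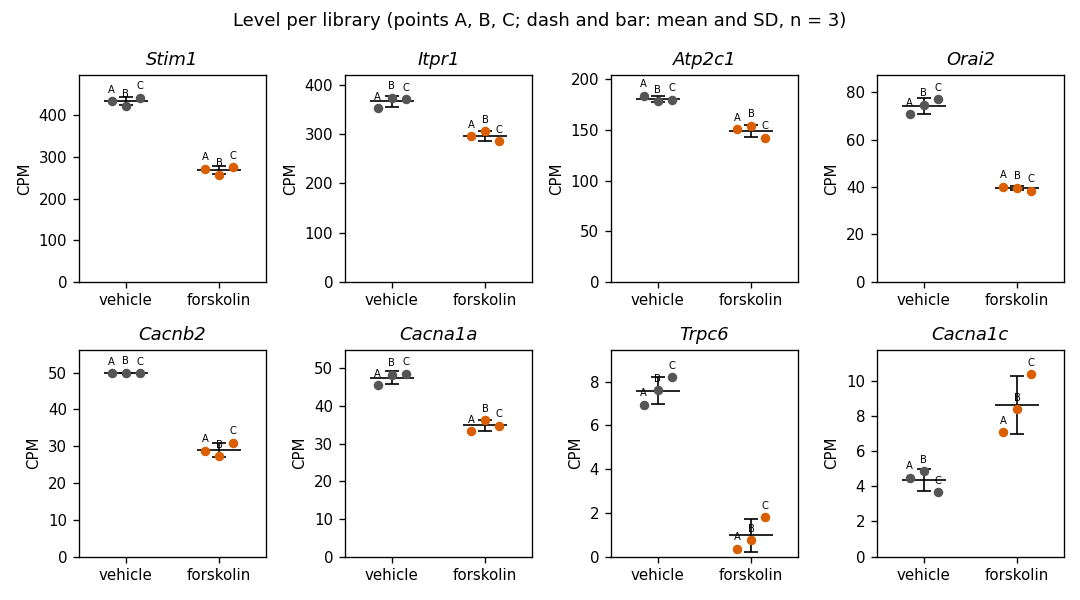
Level in CPM (y axis, from 0) in each library of the 8 genes that passed under all 13 alternative settings, for vehicle and forskolin (x axis), with points for libraries A, B and C and their mean and SD. In each panel the 3 forskolin points lie apart from the 3 vehicle points, above them for Cacna1c and below them for the rest.

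The largest change of the 34 tested genes was in the TRPC group, the TRP channels opened downstream of phospholipase C. Trpc6 (chromosome 9, 8544142 to 8680741), a channel gated by diacylglycerol, was at 6.94, 7.60 and 8.19 CPM in vehicle and 0.365, 0.756 and 1.81 CPM in forskolin libraries. Every forskolin library was far below every vehicle library, and the forskolin libraries differed among themselves (log2 fold change -2.93, SE 0.293, edgeR adjusted p = 1.58e-07). The pooled counts were 312 with vehicle and 36 with forskolin, rounded, a ratio of vehicle over forskolin of 7.66 (exact 95% binomial interval 5.41 to 11.1). Without forskolin C, the highest of its group, the log2 fold change was -3.69, and without forskolin A -2.57. Trpc4 was too low to be tested, with counts of 10, 8 and 5 in the vehicle libraries (A to C) and 1, 2 and 0 in the forskolin libraries, a ratio of vehicle over forskolin of 6.77 (exact 95% binomial interval 2.046 to 35.2).

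Trpc1, a subunit that joins other TRPC proteins, was at 21.0, 19.0 and 19.9 CPM in vehicle and 24.1, 25.6 and 23.8 CPM in forskolin libraries. It rose without overlap (log2 fold change 0.30, SE 0.0870, edgeR adjusted p = 0.00875), a call lost without vehicle B (0.0501, edgeR adjusted p). Trpc1 held 60.4 ± 3.21% of the summed TRPC level per kb with vehicle and 82.7 ± 1.17% with forskolin, and Trpc6 32.1 ± 2.17% and 4.64 ± 3.61% (SD, n = 3). The row of Trpc2, the pheromone-sensing channel of the mouse vomeronasal organ, was at 0.701, 1.37 and 1.26 CPM in vehicle and 3.14, 2.61 and 2.01 CPM in forskolin libraries, without overlap. It rose (log2 fold change 1.18, SE 0.303, edgeR adjusted p = 0.00353). This row is uncertain, as 97.5% of its exon bases also belong to the read-through gene Xntrpc and 1.7% of its 50-base stretches occur in no other gene. Xntrpc was at 7.04 ± 1.05 CPM in vehicle and 9.29 ± 1.56 CPM in forskolin libraries (edgeR adjusted p = 0.0536). Trpc5 and Trpc7 had at most 2 counts over the 6 libraries. Trpc4ap, which encodes an adaptor and no channel, was at 192, 184 and 188 CPM in vehicle and 199, 203 and 208 CPM in forskolin libraries. It rose (log2 fold change 0.11, edgeR adjusted p = 0.0334), a call lost without forskolin B (0.0727), forskolin C (0.0724), vehicle B (0.111) or vehicle C (0.0869; edgeR adjusted p).

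Of the other TRP channel genes only Trpm7 passed. Trpm7, a channel joined to a kinase that carries magnesium and calcium, was at 146, 144 and 139.6 CPM in vehicle and 139.7, 133 and 118 CPM in forskolin libraries, the highest forskolin library lying just above the lowest vehicle library. It fell (log2 fold change -0.14, edgeR adjusted p = 0.0425), a call that held without forskolin A and was lost when any other single library was left out (edgeR adjusted p from 0.0605 to 0.207). Trpm4, a calcium-activated channel for sodium and potassium, was at 22.9 ± 1.56 CPM in vehicle and 24.5 ± 3.29 CPM in forskolin libraries (edgeR adjusted p = 0.422). Trpm6, the epithelial magnesium channel, was at 1.40, 2.21 and 1.65 CPM in vehicle and 0.820, 1.247 and 1.07 CPM in forskolin libraries, where the groups did not overlap but the test was not passed (log2 fold change -0.76, edgeR adjusted p = 0.0561). Trpm3 was at 1.19 ± 0.427 CPM in vehicle and 1.21 ± 0.481 CPM in forskolin libraries (edgeR adjusted p = 0.974). Trpv2, the TRPV gene with the highest level per kb, was at 45.1, 47.3 and 41.0 CPM in vehicle and 39.6, 44.3 and 41.5 CPM in forskolin libraries (edgeR adjusted p = 0.326). The osmosensitive channel gene Trpv4 was at 1.09 ± 0.308 CPM in vehicle and 0.974 ± 0.0403 CPM in forskolin libraries (edgeR adjusted p = 0.713). Libraries of Trpm3, Trpm4, Trpv2 and Trpv4 overlapped between groups.

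**Figure D4:**
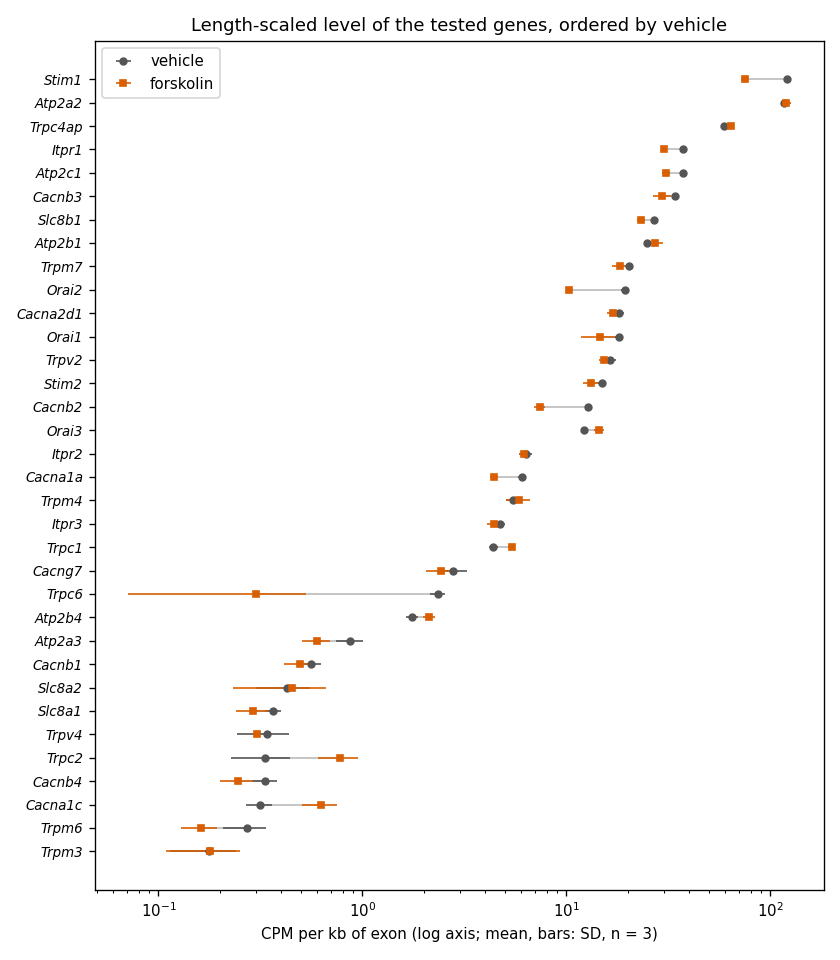
Mean level in CPM per kb of exon (x axis, logarithmic, bars SD, n = 3) of the 34 tested genes with vehicle and with forskolin, ordered on the y axis by their vehicle level. Stim1 at 121 and Atp2a2 at 116 CPM per kb lead with vehicle, and Trpc6 goes from 2.34 to 0.301.

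The 40 genes that were not tested had at most 78.5 counts over the 6 libraries. Cacna2d4, Cacng3, Cacng5 and Trpv3 were at 0 in all 6, which allows up to 0.0729 CPM in the vehicle group and 0.0825 CPM in the forskolin group (3 counts over each group, counting error only). Another 22 had fewer than 10 counts in all, among them the irritant sensor gene Trpa1 with 8, the capsaicin receptor gene Trpv1 with 7.5, the cold sensor gene Trpm8 with 8 and the secretory pathway pump gene Atp2c2 with 3. The other 14 were Ryr2, Ryr1, Slc8a3, Cacna1h, Cacna1d, Cacng8, Atp2b3, Cacna1b, Ryr3, Trpc4, Atp2a1, Trpm1, Trpc5os and Cacna1g. With no filter on low counts, Ryr2 (log2 fold change 1.93, edgeR adjusted p = 4.05e-05), Slc8a3 (-2.53, edgeR adjusted p = 0.00636) and Trpc4 (-2.63, edgeR adjusted p = 0.0123) passed among the 40. In this setting Atp2b1 also passed and Trpc4ap was lost, so that 22 of the 66 genes with a value passed. Of all 18899 genes then tested 36.7% passed. Of all 5542 genes that this setting adds to the test, 4.24% passed. The exons of Atp2a1 and Ryr3 share 21.9% and 4.83% of their bases with Rabep2 and Aven on the opposite strand.

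Other genes of calcium handling were followed in 9 lists with 137 genes in the table, of which 101 were tested, 42 lower and 21 higher (median log2 fold change -0.10). Over all tested genes 25.1% were lower, 24.8% higher and 49.9% either, so list counts near these shares are no result about the list. Among 24 tested genes of calmodulin, its kinases and calcineurin 9 rose and 10 fell. The kinase gene Camk1d rose from 36.2 ± 2.80 to 73.2 ± 9.44 CPM and Camk2n2, which encodes an inhibitor of another such kinase, from 5.16 ± 0.133 to 13.2 ± 1.20 CPM, while the calcineurin regulator gene Rcan1 fell from 102 ± 3.001 to 66.5 ± 5.04 CPM (SD, n = 3). Of 21 genes of phospholipase C and IP3 handling 2 rose and 8 fell. The IP3 phosphatase gene Inpp5a fell from 214 ± 1.95 to 143 ± 6.52 CPM, the phospholipase gene Plcg2 from 27.3 ± 1.27 to 15.9 ± 0.521 CPM, and Mrvi1, whose product binds IP3 receptors, from 135 ± 9.91 to 104 ± 5.65 CPM. Of 15 genes for reticulum buffers, SERCA regulators and junction proteins 2 rose and 9 fell. Jph2, which tethers the reticulum to the plasma membrane, fell from 21.6 ± 2.39 to 7.87 ± 0.756 CPM (log2 fold change -1.46, edgeR adjusted p = 1.41e-08). In the same list Asph fell from 179 ± 4.70 to 148 ± 6.97 CPM and Sdf4, a Golgi calcium-binding protein gene, rose from 158 ± 2.24 to 189 ± 5.57 CPM.

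Of 4 tested regulators of voltage-gated channels 3 fell and 1 rose. Rrad and Gem both encode small GTPases that bind beta subunits and inhibit these channels. Rrad fell from 29.2 ± 0.400 to 9.32 ± 0.932 CPM (log2 fold change -1.65, edgeR adjusted p = 1.59e-10), and Gem rose from 41.0 ± 2.64 to 96.5 ± 6.37 CPM (log2 fold change 1.23, edgeR adjusted p = 1.94e-11). Ahnak, a large scaffold protein gene, fell from 1101 ± 48.8 to 806 ± 57.9 CPM. Of 7 store-operated entry regulators 2 fell and 1 rose. Esyt2, a tether between reticulum and plasma membrane, fell from 292 ± 6.76 to 217 ± 4.79 CPM, and Tmem110, a STIM activator, rose from 32.4 ± 1.30 to 39.3 ± 2.57 CPM. Saraf, which turns store-operated entry off, fell from 301 ± 6.15 to 275 ± 8.38 CPM, a call lost without forskolin B (0.0734), vehicle A (0.0561) or vehicle C (0.0669; edgeR adjusted p). Of 10 endolysosomal, polycystin and mechanosensitive channel genes 4 fell and 1 rose. Tmem63b fell from 155 ± 1.39 to 99.5 ± 6.04 CPM and the stretch-activated channel gene Piezo1 from 660.3 ± 14.6 to 512 ± 13.9 CPM, while the polycystin gene Pkd2 rose from 320.2 ± 2.80 to 409 ± 18.3 CPM.

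Of 12 tested mitochondrial calcium genes 4 rose and 3 fell. Micu2, a gatekeeper of the mitochondrial uniporter, rose from 76.7 ± 0.939 to 100.1 ± 2.82 CPM, Letm1 from 82.4 ± 2.79 to 104 ± 1.39 CPM and the outer membrane channel gene Vdac3 from 75.8 ± 3.43 to 89.7 ± 2.81 CPM. Of 2 potassium-dependent sodium-calcium exchanger genes tested, Slc24a3 fell from 33.0 ± 1.48 to 13.5 ± 1.75 CPM (log2 fold change -1.29, edgeR adjusted p = 3.54e-09), and the other did not pass. Of 6 cytosolic calcium-binding protein genes 1 rose and 2 fell. Cabp1 rose from 0.877 ± 0.270 to 3.94 ± 0.581 CPM, and Hpcal1 fell from 55.7 ± 1.46 to 43.2 ± 4.14 CPM and Efhd2 from 90.8 ± 3.68 to 78.1 ± 2.36 CPM. The buffer genes Calb1, Calb2 and Pvalb were at 0 in all 6 libraries.

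**Figure D5:**
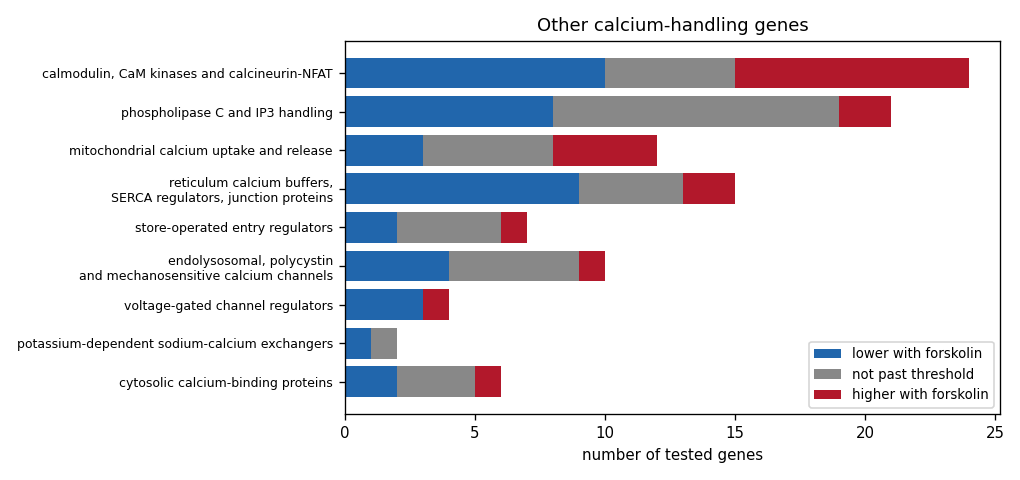
Number of tested genes (x axis) in each of 9 lists of other calcium-handling genes (y axis), split into lower with forskolin, not past the edgeR threshold and higher with forskolin. In the calmodulin and calcineurin list 10 of 24 fell and in the reticulum list 9 of 15.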

How the data were processed

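The values the authors deposited are estimated counts (expected counts) over the exons of each gene, without normalization, with a transcript and its exon length per symbol. The submitters' processing notes name STAR, HOMER and the build mm10. No version, setting or annotation release is given in the sources used here. Deposited counts are multiples of 0.5 and were rounded to whole numbers for the tests, while CPM were computed from the values as deposited. The labels' protocols name a NEBNext Ultra kit and do not state that strand was kept.

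With edgeR 4.0.16 in R 4.3.3, filterByExpr (minimum count 10, minimum total 15) left 13357 genes with 99.91% of counts. Libraries were TMM-scaled, and forskolin was compared with vehicle by the two-sided quasi-likelihood test with group as the only term, Benjamini-Hochberg adjustment over all tested genes and a threshold of 0.05. The SE comes from the F statistic, and the fit was tested on simulated data. Intervals of pooled counts are Clopper-Pearson intervals (95%). Exon overlaps and 50-base stretches come from GENCODE M21 (GRCm38), promoters from RefSeq GRCm38.p6. Alternatives were library size alone, RLE factors, no filter, unrounded counts, the replicate letter as a block, library size as a covariate, each library left out, and DESeq2 1.42.0.

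Every tested gene of the set is named. The values of 1 untested gene are not reported here. All 6 values are given at least where it passed with an absolute log2 fold change of 0.5 or more and a mean of at least 1 CPM, or led its family per kb. Of each list of other calcium genes up to 3 that passed, with the smallest adjusted p, are named. The detail on Ryr2, Slc8a3 and Trpc4 was chosen after their values were seen. The genes and lists were chosen with earlier results of these data known.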

Additional observations from a re-analysis of the deposited data

How the results depend on the processing

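No result past the threshold changed direction under any alternative run. With library size as a covariate 10 of the 74 genes passed in place of 19, 2 higher and 8 lower, beside 4297 of all tested genes (1998 higher) in place of 6668 and 41 of the other calcium genes in place of 63. It lost Atp2a3, Cacnb3, Orai3, Slc8b1, Stim2, Trpc1, Trpc2, Trpc4ap, Trpm7, and the cause was not tested. As every forskolin library was shallower than every vehicle library, depth and treatment cannot be fully told apart. Leaving out 1 library at a time gave 14 to 18 genes past the threshold, 3 to 7 of them higher (3 without forskolin B) and 9 to 11 lower. In these fits 41.6% to 50.1% of all tested genes passed, beside 49.9% in the main fit. DESeq2 passed 15, of which 13 were among the 19, and lost Atp2a3, Atp2b4, Orai3, Stim2, Trpc4ap, Trpm7. Of all genes with a DESeq2 adjusted p, 36.4% passed. Library size alone lost Atp2a3, Cacnb3, Stim2, Trpm7, with an edgeR adjusted p for Stim2 of 0.0949. With no filter on low counts 22 passed, and Trpc4ap was lost.

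The labels do not say that the letters pair libraries. Deviations from the group means correlated with r from 0.0203 to 0.0377 between libraries of the same letter. Between different letters r ran from -0.0482 to 0.0201. Each library correlated best with its own letter, but forskolin B almost equally with vehicle B (0.0203) and vehicle A (0.0201). The replicate block left the count at 19, the same 19 genes, with 6675 of all genes past the threshold, and changed no call of these genes. For genes near 1 CPM, such as Trpc2, Trpm3, Trpm6 and Trpv4, and for the 40 untested genes, depth limits what could be detected.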
